A study of Mus musculus with 24 samples.

Results

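Complex III, complex IV and ATP synthase are the last 3 enzymes of oxidative phosphorylation in the mitochondrial inner membrane. Their nuclear genes were examined on polysomes of mouse erythroblasts short of a ribosomal protein. Members are the genes whose symbol begins with Uqcr, Uqcc, Atp5 or Cox followed by a digit, taken from probe sets with a single gene symbol, with the brightest probe set of each gene kept. This gave 53 of the 18192 single-symbol genes on the array, of which 11 belong to complex III, 25 to complex IV and 17 to ATP synthase. After the filter on dim probe sets 49 members remained among the 11046 genes tested. The other 4 are Cox6b2, Cox7b2 and Cox8b, isoforms known from testis or muscle, and Cox7c, a general subunit read here only by dim probe sets. Their median signals were 50.1 (Cox6b2), 17.8 (Cox7b2), 48.9 (Cox8b) and 54.6 (Cox7c), and the filter, set on the mean log2 signal, lay at a signal of 64.2.

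Immortalized mouse erythroblasts, grown with Epo, SCF and Dex in serum-free medium, received a lentiviral shRNA against Rps19, a lentiviral shRNA against Rpl11, or a control construct (named ev in the titles and sc in the shRNA field), or were left untransduced. Rps19 is a protein of the ribosome's small subunit and Rpl11 one of its large subunit, and mutations in either gene cause Diamond-Blackfan anaemia in people. Each group has 3 gradients, which the labels call biological replicates. Transduced cells were harvested 3 days after delivery, all cells with cycloheximide, which holds ribosomes on mRNA, and each lysate was separated on a sucrose gradient into a polysomal pool and a subpolysomal pool of the remaining fractions. Each pool was read on its own array (7 µg of RNA), 24 arrays in all. The description of Rps19 gradient 3 alone carries the word puro, whose meaning the labels do not give. Recruitment is the log2 polysomal minus the log2 subpolysomal signal of a gradient, and level is the mean of both. Every array was scaled to the same mean, so a recruitment of 0 does not stand for equal amounts in both pools, and a shift of all mRNA between pools would not be seen. No unfractionated RNA was measured, and fewer cells making an mRNA cannot be told from less of it per cell.

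Complex III passes electrons from ubiquinol to cytochrome c, complex IV passes them on to oxygen, and both pump protons whose return through ATP synthase drives ATP formation. A few subunits of complexes III and IV and of the membrane part of ATP synthase are made on mitochondrial ribosomes. All others, the members described here, are translated on cytosolic ribosomes and imported. Erythroblasts use mitochondria for haem synthesis as well as for ATP, and lose them as they mature.

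Each shRNA lowered its target against the control construct (limma, n = 3 gradients a group). The level of Rps19 changed by −1.53 (SE 0.16, adjusted p = 0.00372) and that of Rpl11 by −2.66 (SE 0.25, adjusted p = 0.00111). With the Rpl11 shRNA the level of Rps19 was lower too, with a change of −0.57 (SE 0.16, adjusted p = 0.0273). The erythroblast markers Klf1, Gata1 and Alas2 had mean signals of 11429, 5174 and 15623, and 8 of the 9 erythroblast markers on the array passed the filter, the exception being Hba-a1, whose single-symbol probe set averaged 34.9. Myeloid and lymphoid markers summed to at most 694 and 352 in any group, while 4 of 4 megakaryocyte markers passed, led by Pf4 at 3121. With the Rpl11 shRNA the level of the megakaryocyte marker Gp9 changed by −1.37 (SE 0.28, adjusted p = 0.00859) and that of the erythroblast marker Epor by −0.99 (SE 0.23, adjusted p = 0.0142). Their part in the member changes was not tested. The Rpl11 arrays stood apart in RNA quality: on a log2 scale the Gapdh 3′ probe set exceeded the 5′ one by 0.99, 1.23 and 3.31 in the polysomal pools and −0.46, 2.10 and 3.90 in the subpolysomal pools of gradients 1, 2 and 3. On the other 18 arrays this difference lay between −0.42 and 0.42. Median signals of the Rpl11 arrays were lower as well. In the polysomal pools they were 46.85 to 48.98, against 58.88 to 68.85 in the other groups. In the subpolysomal pools they were 65.73 to 86.70, against 97.22 to 124.55. The part of these lower medians in the member changes was not tested beyond the alternative scalings. The highest signal of an array was 28779 to 44539 in the 12 polysomal pools and 63634 to 144499 in the 12 subpolysomal pools, and 8 of 49 members averaged at least 0.4 of it.

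Because translation of an mRNA can depend on the first bases after the cap, the sequence around the annotated start is shown for members on which the results turn. RefSeq promoter entries (GRCm38.p6) were found for 37 of the 49 members. Each window holds 15 bases before and 15 from the annotated start. Capitals mark the unbroken run of C and T that begins at the start itself, the position of the tract in 5′ terminal oligopyrimidine (TOP) mRNAs. The first 3 windows belong to the genes of subunit c, the next 4 to members lower in recruitment with an shRNA, and the last 3 to Cox7a2l, which has no such run, and to Uqcrfs1 and Uqcc3, which do.
Atp5g1 (chr11:96075617-96075646, minus strand): ccaagggctaaagctgggaggtgagtcagt
Atp5g2 (chr15:102671033-102671062, minus strand): ttcccgcgcccccgcCCCTCTCTgtcttct
Atp5g3 (chr2:73911312-73911341, minus strand): tgctgcggcgcggataagagccgcaccgcg
Atp5md (chr19:47090633-47090662, minus strand): gtgcggggagggggcgtcttccggtcgggc
Cox7a2 (chr9:79759839-79759868, minus strand): ggaggtccggaggctagacgggccgctgcg
Cox19 (chr5:139345152-139345181, minus strand): gtcgctctccgctctggatttcgccgtgat
Uqcc2 (chr17:27133877-27133906, minus strand): ccccaggggcggggcaagcggggcccaaga
Cox7a2l (chr17:83514319-83514348, minus strand): cctaaggggaagccgggtccttttctaggg
Uqcrfs1 (chr13:30545302-30545331, minus strand): ctgcgcctcccgctcCTCTTCgggccgtcg
Uqcc3 (chr19:8880919-8880948, minus strand): tgaggcccggccccgCCCCTCTCCTaggtc

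A start at C followed by at least 4 more pyrimidines was found in 4 of 37 members (10.8%), namely Atp5d, Atp5g2, Uqcc3 and Uqcrfs1, against 2.99% of the 8993 tested genes with an entry. Among cytosolic ribosomal protein genes, the best known carriers of such starts, 7 of 37 (18.9%) had one at the annotated base. A C with 6 more pyrimidines anywhere within 15 bases either side of the start was found in 18.9% of the members, 17.8% of all tested genes and 54.1% of ribosomal protein genes. Its 7 carriers include Cox7a2l and Cox16. None of the 14 members with an entry that were lower in recruitment with the Rpl11 shRNA had the run at the start itself, and all 4 carriers of that run were among the members not called there. Of these carriers Uqcc3, which came close to the threshold, and Atp5d had negative changes, and Atp5g2 and Uqcrfs1 positive ones. With 4 carriers in 37 members the counts are too few to link the run to the calls, and no link was tested. The binding motif of NRF1, a factor known to drive respiratory chain genes, was searched on both strands of the 250 bases before the start. It was present in 6 of 37 members (16.2%) and in 9.81% of all tested genes, and 2 of its 6 carriers, Atp5k and Uqcc2, were among the 14.

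With the Rpl11 shRNA, mRNAs of many small subunits of these enzymes lay less on polysomes than with the control construct, while those of Atp5a1, Uqcrc2 and Uqcc1 lay more on them. Recruitment was lower for 18 and higher for 3 of the 49 members (limma, adjusted p under 0.05), where 3.52% of all tested genes were lower and 2.11% higher. The median change of the 49 was −0.49, against 0.02 over all genes tested, and 35 of 49 changes were negative. Median recruitment of the 49 members was −0.52, −0.44 and −0.48 in the 3 Rpl11 gradients, against −0.17, −0.13 and −0.18 in the control gradients and −0.33, −0.19 and −0.23 in the untransduced gradients. The Rpl11 values lie below those of all other gradients. Bright genes were lower more often than dim ones in this comparison: of the 995 other genes with a mean signal of at least 4460, the lower quartile of the members, 16% were lower and the median change was −0.15. Of the 37 members at least as bright, 16 were lower (43.2%) and the median was −0.52. At or above the median signal of the members (13100), 11.9% of 185 other genes were lower and their median change was −0.05. Of the 25 members there 48% were lower, with a median of −0.52.

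The 8 members at 0.4 of the highest array signal or more had 3 lower and a median change of −0.50, and the 41 below it had 15 lower, 3 higher and a median of −0.39. The part of the signal ceiling in these changes was not tested beyond this split. RNA quality moved with the group. With the first Rpl11 gradient as the only Rpl11 gradient, the median change of the members was −0.39. Its Gapdh differences were nearest to those of other arrays, but its pools were the least alike (0.99 polysomal, −0.46 subpolysomal). In gradients 2 and 3 they were 1.23 and 2.10, and 3.31 and 3.90. Recruitment compares the pools of a gradient, so this choice does not remove an RNA quality difference between them. The Rpl11 arm of that fit is 1 sample, assumed to vary like the other groups, so its count of members passing says little. Without a gradient, 10, 15 or 3 members passed when Rpl11 gradient 1, 2 or 3 was left out, and 3, 4 or 10 when control gradient 1, 2 or 3 was. The part of RNA quality in the member changes was not tested further.

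**Figure D1:**
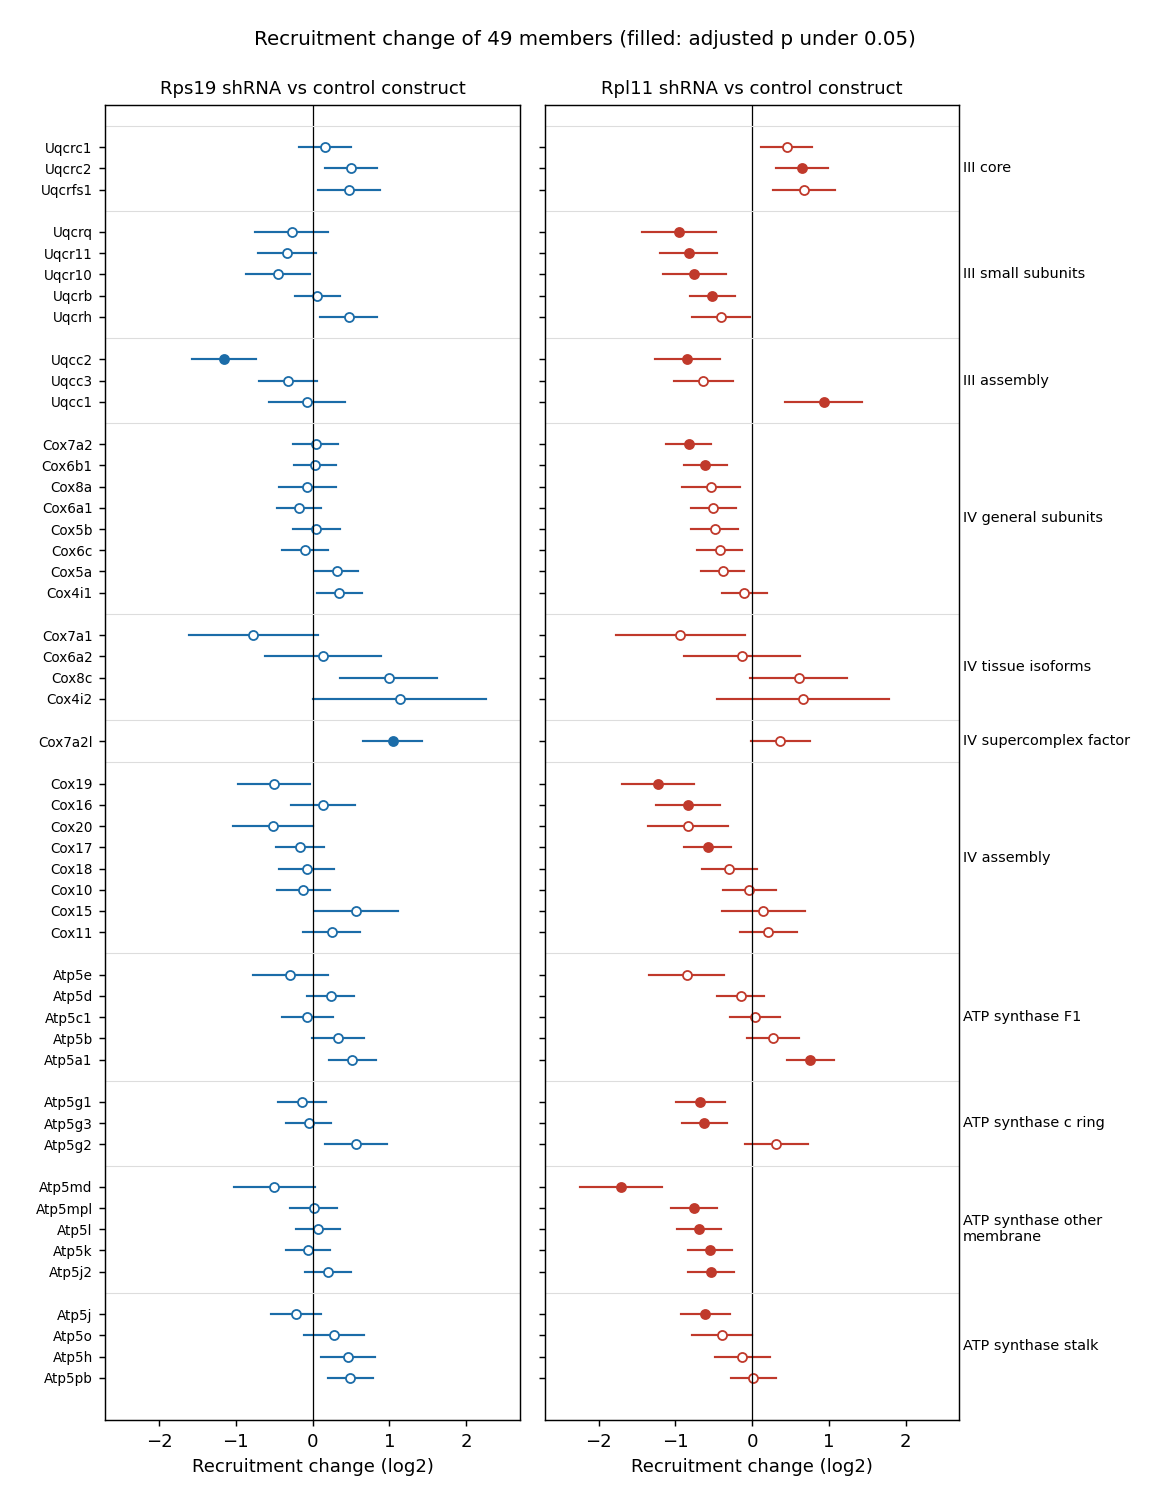
Recruitment change against the control construct (log2, x axis) of the 49 tested members, ordered by complex and role, with the Rps19 shRNA on the left and the Rpl11 shRNA on the right. Points are differences of means over 3 gradients a group, bars are 95% confidence intervals and filled points have adjusted p under 0.05. With the Rpl11 shRNA 18 filled points lie left of 0 and 3 right of it, and with the Rps19 shRNA 1 lies on each side.

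In the main fit the membrane part of ATP synthase showed this most uniformly. All 5 of its subunits other than the c ring were lower with the Rpl11 shRNA (median −0.70, from −1.71 to −0.54). They are Atp5md, Atp5mpl, Atp5l (subunit g), Atp5k (subunit e) and Atp5j2 (subunit f), small proteins known for holding the enzyme in its dimers and in the membrane. Median recruitment of these 5 was −0.61, −0.49 and −0.64 in the Rpl11 gradients, against 0.10, 0.11 and −0.11 with the control construct. The calls were not equally firm. Of 16 alternatives in processing or gradients, the call held in 14 for Atp5md, 10 for Atp5mpl and 8 for Atp5l. It held in only 3 for Atp5k and 2 for Atp5j2, and no sign turned.

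Atp5md, also called DAPIT, had the largest change of all members. Its polysomal signal was 7504, 10954 and 8260 in the Rpl11 gradients, against 14809, 19020 and 13442 in the control gradients. In the subpolysomal pool the signals were 30322, 29479 and 34874 with the Rpl11 shRNA, against 14238, 17572 and 19841 with the control construct. Both pools separate the groups without overlap, the polysomal one with lower and the subpolysomal one with higher values in the Rpl11 gradients. Recruitment was −2.01, −1.43 and −2.08 with the Rpl11 shRNA and 0.06, 0.11 and −0.56 with the control construct, a change of −1.71 (3.27-fold, SE 0.24, adjusted p = 0.00873). Untransduced gradients, at −0.69, −0.14 and −0.35, reached lower than the control gradients but stayed above all Rpl11 gradients.

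Atp5mpl, the 6.8 kDa proteolipid, had recruitment values of −0.39, −0.48 and −0.59 in the Rpl11 gradients, against 0.20, 0.44 and 0.18 in the control gradients (change −0.76, SE 0.14, adjusted p = 0.0145). Those of Atp5l were −0.61, −0.46 and −0.64 with the Rpl11 shRNA, against 0.26, 0.12 and 0.00 with the control construct (change −0.70, SE 0.13, adjusted p = 0.0162). In both genes the Rpl11 values lie below every gradient of the other groups.

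Subunit c, whose ring turns as protons pass, is encoded by 3 genes that give the same mature protein. By their main probe sets they did not move alike. Atp5g1 had recruitment values of −0.25, 0.07 and −0.10 in the Rpl11 gradients, against 0.71, 0.66 and 0.38 in the control gradients, a change of −0.67 (SE 0.14, adjusted p = 0.025). For Atp5g3 the values were −0.32, −0.20 and −0.22 with the Rpl11 shRNA, against 0.31, 0.57 and 0.25 with the control construct, a change of −0.62 (SE 0.13, adjusted p = 0.0273). Atp5g2, the gene with the run of pyrimidines at its start, had −0.78, −0.20 and −0.32 with the Rpl11 shRNA, against −0.76, −0.75 and −0.73 with the control construct. Its change of 0.32 was not past the threshold (adjusted p = 0.356). By this main probe set the first Rpl11 gradient of Atp5g2 lies just below the control values and the other 2 above them. A second, dim probe set of Atp5g2 (mean log2 signal 6.38) read −0.69 (adjusted p = 0.331 with every probe set tested), the sign of Atp5g1 and Atp5g3. Atp5g2 was not compared with these genes by a test.

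In the catalytic head of ATP synthase Atp5a1, which encodes subunit alpha, was higher. Its recruitment was −0.33, −0.53 and −0.27 in the Rpl11 gradients, against −1.31, −1.12 and −0.98 in the control gradients (change 0.76, SE 0.14, adjusted p = 0.0144). A second, dimmer probe set of Atp5a1 read 0.63 (adjusted p = 0.0646 with every probe set tested). The catalytic subunit beta, Atp5b, stood at 0.27 (adjusted p = 0.339), the gamma subunit Atp5c1 at 0.04 (adjusted p = 0.905), delta, Atp5d, at −0.15 (adjusted p = 0.598) and the small subunit epsilon, Atp5e, at −0.85 (adjusted p = 0.0503), none of them past the threshold. Of the peripheral stalk, which keeps the head from turning, Atp5j (subunit F6) was lower at −0.61 (SE 0.15, adjusted p = 0.0404), and Atp5o, Atp5h and Atp5pb stood at −0.39, −0.13 and 0.01, not past the threshold.

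**Figure D2:**
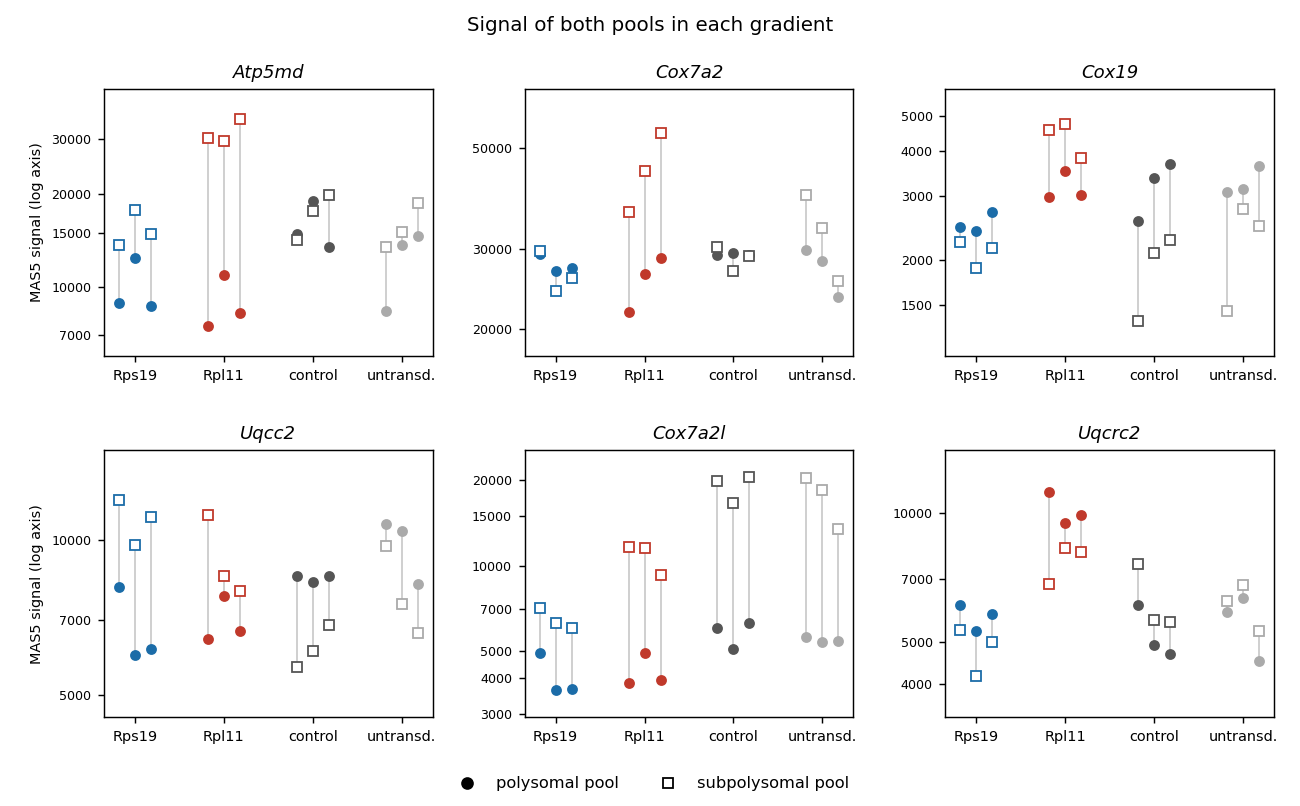
Signal (log axis) in the polysomal pool (filled circles) and the subpolysomal pool (open squares) of each gradient for 6 members, with the Rps19 shRNA, the Rpl11 shRNA, the control construct and untransduced cells from left to right and a grey line joining both pools of a gradient. Atp5md and Cox19 have higher subpolysomal signals in the 3 Rpl11 gradients than in all others, those of Cox7a2 are above all Rps19 and control gradients, while Rpl11 gradient 1 (36150) lies below untransduced gradient 1 (39397), and Cox7a2l has lower subpolysomal signals in both shRNA groups than in the control gradients.

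Complex III divided by role. Its small subunits Uqcrq, Uqcr11, Uqcr10 and Uqcrb were lower with the Rpl11 shRNA, and the fifth, the hinge protein Uqcrh, stood at −0.40 (adjusted p = 0.194). Median recruitment of these 5 was −0.80, −0.80 and −0.83 in the Rpl11 gradients, against −0.13, −0.27 and −0.38 in the control gradients. Uqcrq, a small ubiquinone-binding subunit, had recruitment values of −0.52, 0.06 and −0.48 in the Rpl11 gradients, against 1.02, 0.42 and 0.47 in the control gradients (change −0.95, SE 0.22, adjusted p = 0.0325). This call held in 3 of 16 alternatives, over which the change ran from −1.16 to −0.38. Its probe sets differ: with their mean, Uqcrq recruitment with the control construct was −0.45. Uqcr11 had −0.92, −0.52 and −0.59 with the Rpl11 shRNA, against 0.39, 0.07 and −0.03 with the control construct (change −0.82, SE 0.17, adjusted p = 0.0216). In both genes every Rpl11 value lies below every control value. Uqcrb, whose main probe set is near the ceiling, changed by −0.52, and its second probe set, dimmer and tested with every probe set, by −1.04 (adjusted p = 0.015).

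The larger core subunits of complex III had changes of the opposite sign. Uqcrc2, a core protein of the matrix side, had recruitment values of 0.71, 0.19 and 0.29 in the Rpl11 gradients, against −0.31, −0.19 and −0.24 in the control gradients (change 0.64, SE 0.15, adjusted p = 0.0391). Uqcrc1, the other core protein, stood at 0.45 (adjusted p = 0.109), and Uqcrfs1, the Rieske iron-sulfur protein that hands electrons on, at 0.68 (adjusted p = 0.0542). For all 3 the Rpl11 gradients lie above the control gradients. With the Rps19 shRNA the changes of all 3 were positive too (median 0.48), none past the threshold.

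Among the assembly factors Uqcc1 and Uqcc2, which act together on newly made cytochrome b, went opposite ways. Uqcc1 had recruitment values of −0.01, 0.57 and 0.80 with the Rpl11 shRNA, against −0.07, −0.66 and −0.70 with the control construct (change 0.93, SE 0.22, adjusted p = 0.041), and the first gradients of both groups lie close together. Its other probe set read 0.20, not past the threshold. Uqcc2 had −0.79, −0.13 and −0.26 with the Rpl11 shRNA, against 0.58, 0.44 and 0.32 with the control construct (change −0.84, SE 0.19, adjusted p = 0.0311). Uqcc3 stood at −0.63 (adjusted p = 0.0560).

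In complex IV all 8 general subunits tested had negative changes with the Rpl11 shRNA (median −0.50), and 2 of them, Cox7a2 and Cox6b1, passed the threshold. Both are among the members that averaged at least 0.4 of the highest array signal. Cox7a2 had polysomal signals of 21786, 26393 and 28714 in the Rpl11 gradients, against 29125, 29472 and 29128 in the control gradients. Its subpolysomal signals were 36150, 44568 and 54169 with the Rpl11 shRNA, against 30376, 26908 and 28979 with the control construct. Recruitment was −0.73, −0.76 and −0.92 with the Rpl11 shRNA, against −0.06, 0.13 and 0.01 with the control construct, a change of −0.83 (1.77-fold, SE 0.13, adjusted p = 0.00942). Cox6b1, a subunit on the intermembrane side, changed by −0.61 (SE 0.13, adjusted p = 0.0231). Its recruitment was −0.74, −0.83 and −0.96 in the Rpl11 gradients, against −0.20, −0.20 and −0.30 in the control gradients, but −0.68, −0.42 and −0.47 in untransduced gradients, so the lowest untransduced value comes close to the Rpl11 values.

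Of the 8 complex IV assembly factors 3 were lower. Cox19, a small protein of the intermembrane space with a part in copper delivery, had polysomal signals of 2981, 3523 and 3016 in the Rpl11 gradients, against 2564, 3366 and 3674 in the control gradients. Its subpolysomal signals were 4571, 4752 and 3820 with the Rpl11 shRNA, against 1351, 2092 and 2265 with the control construct. Only the subpolysomal pool separates the groups, and the recruitment change was −1.23 (2.34-fold, SE 0.21, adjusted p = 0.0125). Cox16 had recruitment values of 0.35, 0.65 and 0.39 with the Rpl11 shRNA, against 1.73, 1.12 and 1.05 with the control construct (change −0.84, SE 0.19, adjusted p = 0.0316). Cox17, the copper chaperone of complex IV, changed by −0.58 (SE 0.14, adjusted p = 0.0411), with recruitment values of −0.78, −0.82 and −0.99 in the Rpl11 gradients, against −0.21, −0.39 and −0.25 in the control gradients. Its level in the first Rpl11 gradient, 12.11, stood apart from 14.64 and 14.68 in the other 2 and from 14.49, 14.61 and 14.60 with the control construct, both pools being low there. The haem-modifying enzymes Cox10 and Cox15, the copper factor Cox11 and the insertase Cox18 had changes between −0.29 and 0.21, and Cox20 stood at −0.83 (adjusted p = 0.066).

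**Figure D3:**
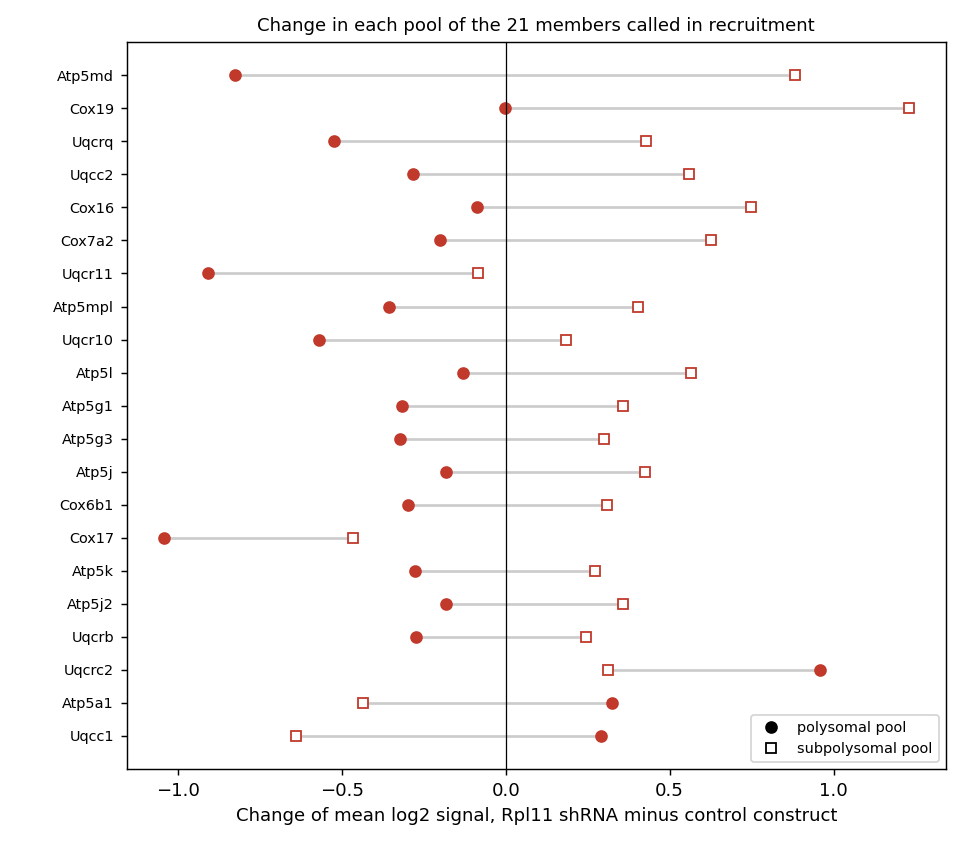
Change of the mean log2 signal in each pool (x axis, Rpl11 shRNA minus control construct) for the 21 members called in recruitment, with filled circles for the polysomal and open squares for the subpolysomal pool. Of the 18 members lower in recruitment 16 have a positive subpolysomal change, while the means of Uqcr11 and of Cox17, with its low first Rpl11 gradient, are negative in both pools.

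Several complex IV subunits have a second isoform known from lung, muscle or testis. The 4 that were tested, Cox4i2, Cox6a2, Cox7a1 and Cox8c, had dim probe sets, with levels between 6.23 and 9.29, and 0 of them passed in recruitment with either shRNA. Of their general partners Cox4i1 stood at −0.10 with the Rpl11 shRNA (adjusted p = 0.714), Cox6a1 at −0.50 (adjusted p = 0.0503) and Cox8a at −0.53 (adjusted p = 0.0942), and Cox7a2 is described above. Cox8c, known from testis, had subpolysomal signals of 453, 417 and 410 in the Rpl11 gradients and 430, 462 and 554 in the Rps19 gradients, against 915, 633 and 697 in the control gradients.

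With the Rps19 shRNA few members passed the threshold in recruitment against the control construct. Recruitment was higher for 1 (Cox7a2l) and lower for 1 (Uqcc2) of 49, where 0.29% of all tested genes were higher and 0.579% lower. The median change was 0.04, against 0.01 over all genes. At an unadjusted p under 0.05 (limma) there were 16 members (32.7%), where 14.9% of all tested genes were. Neither call held when any Rps19 or control gradient was left out (0 of 49 in each of these 6 fits).

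Cox7a2l encodes SCAF1, a relative of Cox7a2 that links complex III to complex IV in supercomplexes. Its polysomal signal was 4931, 3644 and 3672 in the Rps19 gradients, against 6004, 5078 and 6255 in the control gradients. In the subpolysomal pool it was 7103, 6278 and 6046 with the Rps19 shRNA, against 19897, 16682 and 20480 with the control construct. Both pools are lower in the Rps19 gradients, the subpolysomal one by far more, so recruitment stood at −0.53, −0.78 and −0.72 with the Rps19 shRNA, against −1.73, −1.71 and −1.71 with the control construct (change 1.04, 2.06-fold, SE 0.18, adjusted p = 0.0366). Its 3 probe sets read 1.04, 1.09 and 1.07. With the Rpl11 shRNA recruitment was −1.60, −1.22 and −1.23, a change of 0.37 that did not pass (adjusted p = 0.253), although the groups do not overlap.

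Uqcc2 was lower with either shRNA. Its polysomal signals were 8117, 5988 and 6139 in the Rps19 gradients, against 8504, 8291 and 8522 in the control gradients, and its subpolysomal signals were 11970, 9798 and 11072 with the Rps19 shRNA, against 5667, 6096 and 6835 with the control construct. The polysomal signals are lower and the subpolysomal ones higher than all control values. Recruitment was −0.56, −0.71 and −0.85 with the Rps19 shRNA, against 0.58, 0.44 and 0.32 with the control construct (change −1.16, 2.23-fold, SE 0.19, adjusted p = 0.0344). Both shRNA comparisons use the same control gradients. Untransduced gradients, at 0.14, 0.47 and 0.32, lie above all 6 shRNA gradients.

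**Figure D4:**
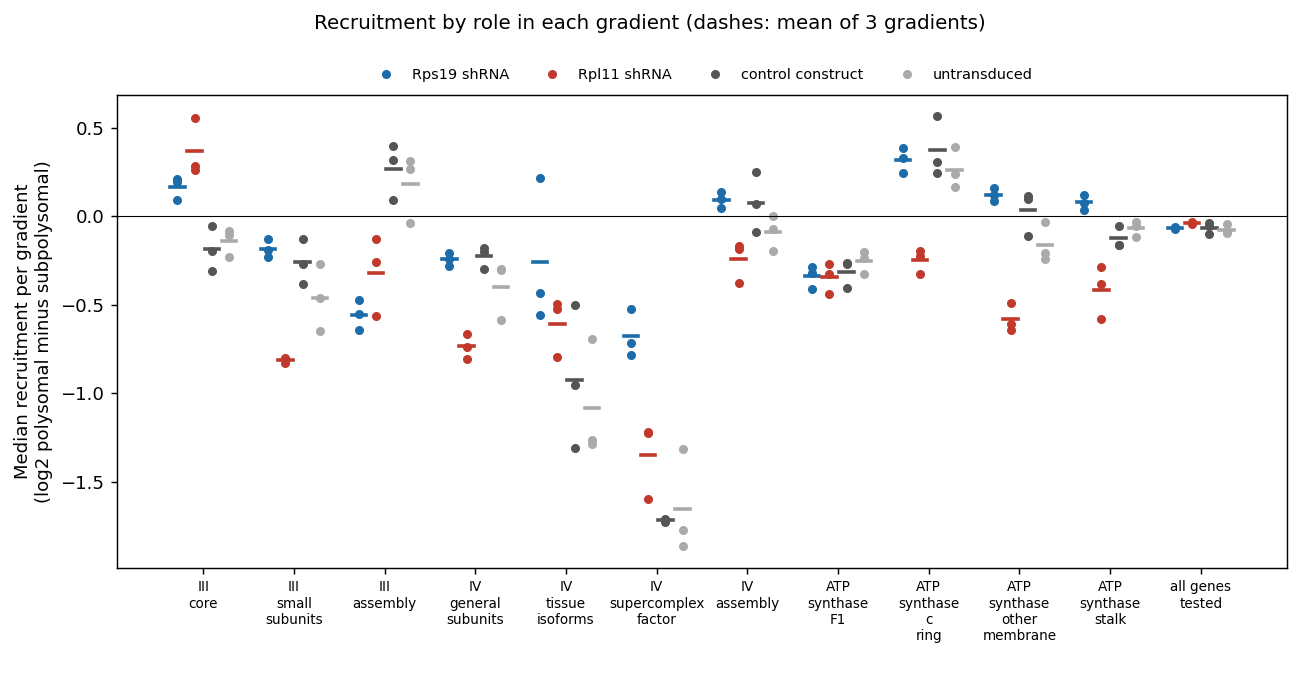
Median recruitment over the members of each role in every gradient (y axis, log2), with the Rps19 shRNA, the Rpl11 shRNA, the control construct and untransduced cells from left to right within a role, dots for gradients and dashes for the mean of 3. In complex III small subunits, complex IV general subunits, and the c ring, other membrane subunits and peripheral stalk of ATP synthase the Rpl11 dots lie below all others. The medians over all genes tested lie between −0.10 and −0.03.

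Set directly against the Rps19 shRNA, the Rpl11 shRNA gave lower recruitment for 5 of 49 members and higher for 0, where 0.435% of all tested genes were lower and 0.118% higher. The median difference was −0.45, and 41 of 49 differences were negative. Of the 995 other genes at least as bright as the lower quartile of the members, 2.51% were lower and the median was −0.15. The 5 are the ATP synthase membrane subunits Atp5l, Atp5mpl and Atp5j2 and the complex IV subunits Cox7a2 and Cox5a, a subunit of the matrix side. Cox7a2 recruitment was −0.73, −0.76 and −0.92 with the Rpl11 shRNA, against −0.02, 0.14 and 0.07 with the Rps19 shRNA (difference −0.87, SE 0.13, adjusted p = 0.0374). Cox5a stood at −0.47, −0.27 and −0.30 with the Rpl11 shRNA, against 0.27, 0.42 and 0.37 with the Rps19 shRNA (difference −0.70, SE 0.13, adjusted p = 0.0468). The Rps19 values of both genes lie above every Rpl11 value. Without the first Rpl11 gradient 5 members passed, 4 of them lower, and without any other gradient of these groups 0 passed. The comparison holds the RNA quality difference of the Rpl11 arrays given above, whose part was not tested.

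In level, fewer members were called with the Rpl11 shRNA than in recruitment. With the Rpl11 shRNA 3 of 49 were higher and 4 lower, where 8.7% of all tested genes were higher and 11.4% lower, so the share of members called is below that of all genes. The median level change was 0.01, against −0.08 over all genes. Uqcrc2 was higher, with levels of 13.09, 13.11 and 13.13 in the Rpl11 gradients, against 12.74, 12.37 and 12.32 in the control gradients (change 0.64, SE 0.16, adjusted p = 0.0189). Cox19 (0.61, SE 0.19, adjusted p = 0.0448) and Cox5a (0.46, SE 0.14, adjusted p = 0.0344) were higher too. The levels of Cox7a2l were 12.71, 12.88 and 12.57 with the Rpl11 shRNA, against 13.42, 13.17 and 13.47 with the control construct (change −0.63, SE 0.16, adjusted p = 0.018). Cox8a (−0.52, SE 0.15, adjusted p = 0.0296), Uqcr11 (−0.50, SE 0.15, adjusted p = 0.0404) and Cox8c (−0.48, SE 0.15, adjusted p = 0.0489) were lower as well. Cox8a is a general complex IV subunit, and its levels of 13.60, 13.29 and 13.09 in the Rpl11 gradients lie below 13.84, 13.80 and 13.91 in the control gradients. These counts depend on single gradients: 10, 1 or 0 members passed without Rpl11 gradient 1, 2 or 3, and 1, 1 or 0 without control gradient 1, 2 or 3. With each array centred on its median all genes shifted to a median of 0.32, and 21 members were called higher and 0 lower, against 4 members called in recruitment at that scaling, so both the direction and the order of these counts rest on the scaling.

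With the Rps19 shRNA 0 members were higher and 1, Cox7a2l, was lower in level, where 0.335% of all genes were higher and 0.471% lower. Its levels were 12.53, 12.23 and 12.20 in the Rps19 gradients, against 13.42, 13.17 and 13.47 in the control gradients (change −1.03, 2.04-fold, SE 0.16, adjusted p = 0.0287), with no overlap. This call held only without the first Rps19 gradient and was lost without any other Rps19 or control gradient (0 members). Over all members the median level change was −0.12, with 40 of 49 negative, against 0.01 over all genes. The brightest genes shared this: the 185 other genes at or above the median signal of the members (13100) had a median of −0.14 with 77.3% negative, and the 25 members there a median of −0.10 with 88% negative. At or above the lower quartile (4460) the 995 other genes had a median of −0.05 with 55.5% negative. The 37 members there had a median of −0.16 with 86.5% negative.

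**Figure D5:**
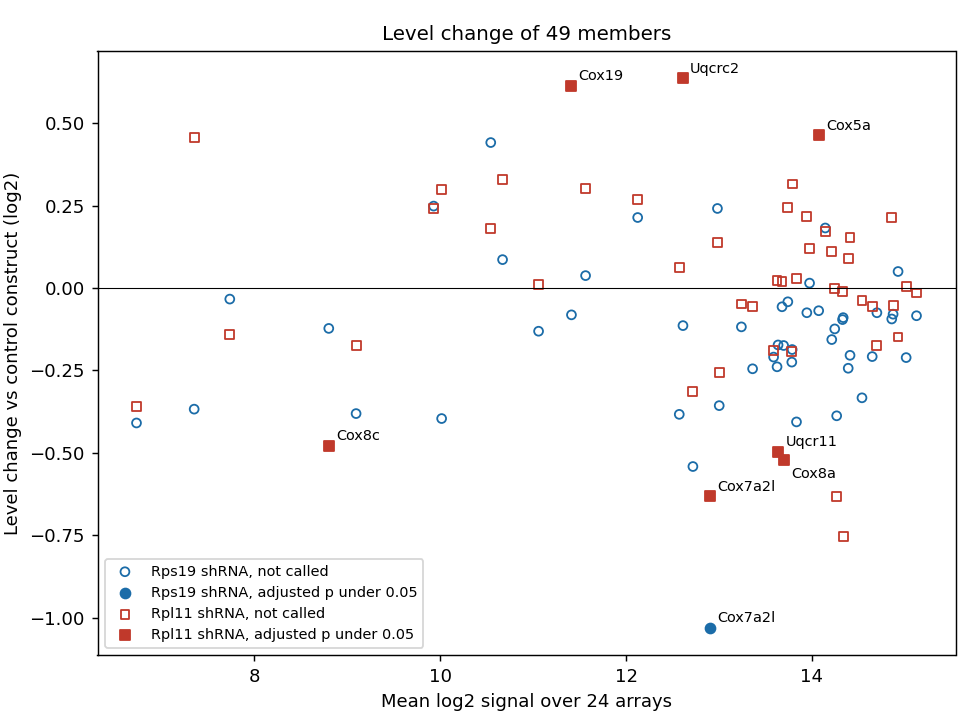
Level change against the control construct (y axis, log2, means over 3 gradients a group) by mean log2 signal over 24 arrays (x axis) of the 49 members, with blue circles for the Rps19 shRNA and red squares for the Rpl11 shRNA, filled where adjusted p is under 0.05. Only Cox7a2l is filled for both shRNAs, at −1.03 and −0.63.

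The control construct against untransduced cells gave 0 members called in recruitment and 0 in level, and 0% of all tested genes in either comparison (limma, adjusted p under 0.05). At an unadjusted p under 0.05 there were 5 members (10.2%) in recruitment and 1 (2.04%) in level, where 4.5% and 2.35% of all tested genes were. The median recruitment change was 0.10 and the median level change −0.01.

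Without any target shRNA, members already differed in where their mRNA lay. In cells with the control construct 7 of 49 were higher in the polysomal and 18 higher in the subpolysomal pool, where 17.8% of all tested genes were higher and 18.8% lower on polysomes. Brightness moved with this at both of 2 marks, in different ways. Other genes passed more often in both directions at the first mark, and mostly as lower on polysomes at the second. Of the 995 other genes at or above the lower quartile signal of the members 28.4% were lower and 31.4% higher (median 0.07). Of the 37 members there 35.1% were lower and 10.8% higher (median −0.23). At or above the median signal of the members 62.7% of 185 other genes were lower (median −0.58), and 36% of 25 members (median −0.24). Cox16 and the dim muscle isoform Cox7a1 were highest on polysomes, both with a recruitment of 1.30 (SE 0.13 and 0.27, adjusted p = 0.0001 and 0.00397). Cox7a2l, at −1.72 (SE 0.12, adjusted p = 2.55e-05), Cox4i2, at −1.60, Cox8c, at −1.28, and Atp5a1, at −1.13 (SE 0.10, adjusted p = 5.09e-05), were lowest. The genes of subunit c differed here as well: Atp5g1 and Atp5g3 stood at 0.58 and 0.37 (adjusted p = 0.00159 and 0.0114), Atp5g2 at −0.75 (SE 0.13, adjusted p = 0.00163). These positions depend on the probe set: of 17 other probe sets of called genes 8 had the same sign, and Uqcrb read −0.34 by its main and 1.51 by its dimmer probe set. They also depend on the scaling: with each array centred on its median 31 members were called higher and 4 lower, and 11 of the 25 called here turned sign, among them Uqcrb, but not Cox16, Cox7a1, Cox7a2l, Cox4i2, Cox8c, Atp5a1 or the genes of subunit c. Over all 25 members with more than 1 probe set, the other 37 shared the sign of the main one in 21 cases between pools. In the changes against the control construct they shared it in 33 cases for the Rpl11 shRNA and 25 for the Rps19 shRNA in recruitment, and in 22 and 30 in level.

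Genes of the same pathway outside the naming rule showed the following counts with the Rpl11 shRNA, to be read against the shares in recruitment over all genes (3.52% lower, 2.11% higher) and over the 995 bright genes (16% lower). Of 33 complex I subunits, the entry enzyme of the chain, 11 were lower in recruitment and 1 higher (median −0.44). Examples are Ndufc1 at −1.22 (SE 0.16) and Ndufb3 at −1.11 (SE 0.15), both with adjusted p = 0.00873. Of 18 further subunits and assembly factors of complexes III and IV, 10 were lower and 2 higher (median −0.58). The copper protein Sco2 was higher at 1.69 (SE 0.22), and Coa3, a factor for Cox1 synthesis, and Higd1a, a small membrane partner of complex IV, were lower at −1.21 (SE 0.17) and −1.26 (SE 0.18), each with adjusted p = 0.00873. Of 8 other ATP synthase genes 3 were lower, Atpaf2, Fmc1 and Dmac2l, and 0 higher (median −0.39). Of 12 genes of cytochrome c and quinone carriers 1 was lower and 0 higher, and the median change was positive at 0.14. The lower one was cytochrome c, Cycs, at −0.73 (SE 0.12, adjusted p = 0.0122). Complex II, which pumps no protons, had 1 of 8 lower (Sdhaf2, −0.87) and a median of −0.26. Of 10 genes of membrane insertion and mitochondrial mRNA handling 1, Slirp, was lower at −1.01 (SE 0.17, adjusted p = 0.0106), while the median of that list was positive at 0.23. In the Rps19 comparison these lists held 1 gene called in recruitment, the complex I subunit Ndufb9 (−0.66, SE 0.13, adjusted p = 0.0473). In level the Rpl11 shRNA gave 11 higher and 0 lower of 33 complex I subunits (median 0.25), where 8.7% of all genes were higher, among them Ndufa5 at 0.90 (SE 0.12, adjusted p = 0.00199).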

How the data were processed

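The 24 arrays (Affymetrix, 1 for each pool) hold deposited signal intensity values on a linear scale. The submitters' processing notes name MAS5, without a version, as the tool the authors used. The trimmed mean of every array was close to 500, so the arrays were already scaled. It was 499.77 to 499.81 in the Rpl11 arrays and 500 in all others. Genes were named from GEO's platform annotation, and 34958 probe sets have 1 gene symbol, 932 several and 9211 none. Probe sets with several symbols were left out. Per gene the probe set with the highest mean log2 signal was kept, and genes whose mean log2 signal was under the median over all probe sets (6.17, a signal of 64.2) were not tested. Signals were taken as log2(signal + 7.85), so fold changes of dim genes are understated.

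Recruitment and level of the 12 gradients were fitted with limma 3.58.1 (R 4.3.3) with the group as factor, and p-values were adjusted by Benjamini-Hochberg over all 11046 genes. Because limma pools the spread over groups, p-values cover the spread between these gradients. The genes named are the members past the threshold, the largest changes of each complex and the paralog families, and for other lists up to 4 genes. The members and lists were chosen with earlier results of these data known. The fit was tested on simulated data. Alternatives were other pseudocounts, no filter, other scalings, the mean of a gene's probe sets, only the groups compared, a replicate block and each gradient left out. Same-numbered gradients did not deviate together in recruitment (correlations from −0.124 to 0.0852 in 18 pairs), so the numbers were not used as pairs there. In level the correlations spanned −0.331 to 0.527, and 7 of 18 exceeded 0.1. Those between the Rps19 shRNA and the control construct did so in each pair (0.527, 0.292 and 0.211). For that comparison the gradients count as paired by this check, and the fit with the replicate block gave the same count, 1 member. Arrays correlated between 0.875 and 0.965. The number of arrays limits the precision. The genome build behind the probe annotation was not given in the sources used here.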

Additional observations from a re-analysis of the deposited data

Results flagged for a closer look

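Recruitment of 5 members differed between the 2 shRNA groups by a direct test (limma, Rpl11 shRNA minus Rps19 shRNA, 3 gradients each). The differences were −0.87 for Cox7a2, −0.77 for Atp5mpl, −0.76 for Atp5l, −0.74 for Atp5j2 and −0.70 for Cox5a, with adjusted p from 0.0374 to 0.0476, and in all 5 every Rpl11 gradient lies below every Rps19 gradient. Each of these calls was lost under 13 or 14 of 16 alternatives. With quantile scaling over all arrays the difference was −0.08 for Cox5a (adjusted p = 0.813), −0.24 for Atp5j2, −0.42 for Cox7a2, −0.43 for Atp5l and −0.52 for Atp5mpl. Gapdh 3′ to 5′ ratios were high in 5 of the 6 Rpl11 arrays, and their part in these differences was not tested.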

How the results depend on the processing

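None of the 36 calls on members between groups changed sign under the alternatives run. Of these 36, 36 stayed past the threshold with a pseudocount of 0 or 32, 23 with the mean of a gene's probe sets, 21 with quantile scaling within each pool, 17 with quantile scaling over all arrays, 8 with each array centred, 14 with the replicate block, 1 with no filter and 0 with only the groups compared. For the Rpl11 shRNA in recruitment, 21 members passed, against 1 with no filter, 11 with quantile scaling over all arrays, 4 with each array centred, 0 with only the groups compared, 7 with the replicate block, 0 with the first Rpl11 gradient alone (added after seeing the data), and 3 to 15 with a gradient left out. For the Rps19 shRNA in recruitment, 2 passed, against 1 with quantile scaling over all arrays and 0 with no filter, each array centred, the mean of probe sets, only the groups compared, the replicate block or any gradient left out (0 to 0). Between the shRNA groups 5 passed, against 8 with a pseudocount of 32, 0 with no filter, either quantile scaling, each array centred, the mean of probe sets, only the groups compared, the replicate block or the first Rpl11 gradient alone, and 0 to 5 with a gradient left out. In level with the Rps19 shRNA 1 passed, against 0 with no filter or only the groups compared, and 0 to 1 with a gradient left out. In level with the Rpl11 shRNA 7 passed, against 0 with no filter or only the groups compared, 21 with each array centred, 1 with the first Rpl11 gradient alone, and 0 to 10 with a gradient left out. Between pools of the control construct 25 passed, against 16 with no filter, 12 with only the groups compared and 14 to 18 with a gradient left out. Of these 25, signs turned for 11 with each array centred (Atp5h 0.14, Cox11 0.028, Cox17 0.35, Cox20 0.074, Cox4i1 0.35, Cox5b 0.30, Cox6a1 0.27, Uqcc1 0.16, Uqcrb 0.30, Uqcrfs1 0.24, Uqcrh 0.23), for 6 with quantile scaling over all arrays (Cox17 0.26, Cox4i1 0.47, Cox5b 0.55, Cox6a1 0.52, Uqcrb 0.65, Uqcrh 0.22) and for 3 with the mean of probe sets (Cox6a1 0.077, Uqcrb 0.59, Uqcrq −0.45). Centring each array moved the share of higher calls over all genes to 89.6% in level with the Rpl11 shRNA, against 43.2%, and to 94% between pools, against 48.6%. Causes of these shifts were not tested. Signals near the array's ceiling limit what the brightest members can show.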
